A study of Homo sapiens with 80 samples.

Results

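The genes described here are the clustered histone genes, taken as every gene whose name in the RNA-seq tables begins with HIST1H, HIST2H, HIST3H or HIST4H, without the names of pseudogenes that end in P and a number or in PS. The rule gave 75 genes of the 58735 in those tables: 55 lie on chromosome 6, 19 on chromosome 1, and HIST4H4 lies alone on chromosome 12. By the class in their names, 6 are genes of the linker histone H1, 17 of H2A, 23 of H2B, 14 of H3 and 15 of H4. All 6 H1 genes are on chromosome 6. RefSeq lists HIST2H2BA, HIST2H2BB, HIST2H2BC, HIST2H2BD and HIST3H2BA, all of class H2B, as pseudogenes, and the name rule kept them. The PRO-seq table held 62 of the 75 genes under the same Ensembl identifier (46 on chromosome 6) and the table of 3' tag counts held 53 (46 on chromosome 6).

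The series studied resistance to lenalidomide, a drug that turns the cereblon ubiquitin ligase against zinc finger proteins, in lymphoma lines of T cell origin that carry ALK (ALK-positive anaplastic large cell lymphoma). SU-DHL-1 was the main line. Parental SU-DHL-1 cells were compared with lenalidomide-regrown cells, which were 3 pools selected separately in rising drug concentrations and then kept without drug for at least 2 months. Both were profiled by PRO-seq, which counts engaged RNA polymerase, with 3 libraries each. Both were also profiled by 3' digital gene expression (DGE), which counts tags next to the poly(A) tail, after 18 h in DMSO or in 2.5 µM lenalidomide, with 3 libraries for each of the 4 groups. For RNA-seq, parental and regrown cells that all carried Cas9 and an inducible guide against ZFP91, a zinc finger gene, were grown without doxycycline or with 1 µg/ml for 96 h to edit ZFP91, again with 3 libraries for each of the 4 groups. Separate RNA-seq tables held SU-DHL-1 and KI-JK, another ALK-positive line, transduced with an empty vector or with CSNK2B, the regulatory subunit of casein kinase 2, with 3 libraries per group. The knockout cells are induced pools, so a library can hold edited and unedited cells. Nothing in the labels says that the libraries of the parental or vector groups came from separate cultures, so the p-values measure the spread between these libraries, which may be technical.

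Clustered histone genes supply the histones that package newly copied DNA, and they are read mainly in S phase. Most of them have no intron, and their mRNA ends in a stem-loop that SLBP binds, in place of a poly(A) tail. The nuclear factor NPAT gathers at the clusters in histone locus bodies, and classes of histone gene differ in the promoter elements read by OCT1, HINFP and other factors. Some of the genes also make polyadenylated mRNA, which methods that capture poly(A) tails can see.

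Total counts per library were 33467869 to 47199672 in PRO-seq, 15387114 to 23052717 in the ZFP91 RNA-seq table, 14444523 to 24115731 in the SU-DHL-1 vector table, 23073232 to 28927808 in the KI-JK vector table and 41571 to 395827 in DGE. ALK and TNFRSF8 (CD30), which define this lymphoma, were read at 552 and 535 CPM (counts scaled to a common library total) in parental RNA-seq, and CD4, CD2, MS4A1 and MPO were at 0. Mean ZFP91 RNA was 114 CPM in parental cells without doxycycline (111 to 119) and 88.0 CPM with it (85.8 to 91.7), which was not called (log2 change -0.34, edgeR adjusted p = 0.158). In regrown cells ZFP91 was 91.4 CPM without and 86.8 CPM with doxycycline. The reads cover the whole gene, so they do not measure the edit. CSNK2B RNA rose from 30.0 to 251 CPM in SU-DHL-1 and from 17.5 to 78.9 CPM in KI-JK with its vector. A gene was called when its p-value from edgeR's quasi-likelihood test, adjusted by the Benjamini-Hochberg method over all genes tested, was under 0.05. Errors of log2 changes are standard errors. The share of all genes with an unadjusted p under 0.05 was not counted, so counts of members at that threshold have no background.

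Promoter sequences from RefSeq (GRCh38.p14) were matched to 65 of the 75 genes, 50 of them on chromosome 6. Each window ran from 250 bases before the gene's start to 50 after it, and 5 short elements were searched on both strands: TATAAA (the TATA box), CCAAT, ATTTGCAT (the octamer read by OCT1), AAACACA (known from H1 promoters) and GGTCCG (known from H4 promoters). The TATA box stood in 68.0% of the chromosome 6 windows and 66.7% of the others, against 12.1% of all 27305 promoters in the table. CCAAT stood in every H1, H2A, H2B and H3 window of both sets but in only 3 of 10 chromosome 6 H4 windows and 0 of 3 others, and in 35.6% of all promoters. The octamer stood in 9 of 11 H2A and 12 of 15 H2B windows of chromosome 6 and in none of H1, H3 or H4, against 1.82% of all promoters. Windows of paired H2A and H2B genes overlap, so 1 element can be counted in both classes. AAACACA stood in 6 of 6 H1 windows and in 5.78% of all promoters. On other chromosomes it also stood in 2 of 4 H3 and 1 of 5 H2A windows. GGTCCG stood in 9 of 10 chromosome 6 H4 windows and in 3 of 3 other H4 windows, against 11.0% of all promoters. In all 12 it lay 44 to 47 bases before the start. GGTCCG also stood in 1 of 8 chromosome 6 H3 windows and, elsewhere, in 1 of 5 H2A and 1 of 3 H2B windows. The sequences below were chosen to show the elements of each class on chromosome 6, with HIST4H4 and HIST2H2AC from other chromosomes for comparison. Each is printed 5' to 3' on the strand of the named gene up to the base before its start, and the capitals mark the elements on either strand. Where 2 elements overlap, their capitals run together, as in the TATA box pair of HIST1H2AG and the CCAAT and GGTCCG of HIST2H2AC.
HIST1H1E (H1, plus strand, chr6:26156179-26156328): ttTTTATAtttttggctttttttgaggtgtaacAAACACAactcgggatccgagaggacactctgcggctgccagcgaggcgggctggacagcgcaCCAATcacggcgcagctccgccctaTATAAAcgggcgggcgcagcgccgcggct
HIST1H1B (H1, minus strand, chr6:27867589-27867738): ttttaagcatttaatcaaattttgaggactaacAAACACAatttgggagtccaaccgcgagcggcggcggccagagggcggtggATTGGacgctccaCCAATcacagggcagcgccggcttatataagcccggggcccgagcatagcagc
HIST1H2AG (H2A, plus strand, shared with HIST1H2BJ on the other strand, chr6:27132793-27133042): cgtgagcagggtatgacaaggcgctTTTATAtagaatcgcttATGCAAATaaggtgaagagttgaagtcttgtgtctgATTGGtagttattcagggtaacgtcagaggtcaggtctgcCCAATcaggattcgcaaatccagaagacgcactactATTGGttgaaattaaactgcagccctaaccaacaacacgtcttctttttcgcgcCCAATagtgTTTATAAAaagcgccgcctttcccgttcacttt
HIST1H3A (H3, plus strand, chr6:26020301-26020450): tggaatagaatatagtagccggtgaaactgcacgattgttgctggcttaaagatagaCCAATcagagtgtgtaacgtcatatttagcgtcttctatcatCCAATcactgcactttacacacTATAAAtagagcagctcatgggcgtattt
HIST1H4J (H4, plus strand, chr6:27823942-27824091): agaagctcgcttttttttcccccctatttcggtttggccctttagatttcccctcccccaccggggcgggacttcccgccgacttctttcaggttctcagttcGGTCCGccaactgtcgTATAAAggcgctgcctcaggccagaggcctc
HIST4H4 (H4, minus strand, chr12:14771132-14771281): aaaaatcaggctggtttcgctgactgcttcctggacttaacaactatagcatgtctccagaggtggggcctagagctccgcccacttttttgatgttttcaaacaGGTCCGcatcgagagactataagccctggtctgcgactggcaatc
HIST2H2AC (H2A, plus strand, shared with HIST2H2BE on the other strand, chr1:149886668-149886917): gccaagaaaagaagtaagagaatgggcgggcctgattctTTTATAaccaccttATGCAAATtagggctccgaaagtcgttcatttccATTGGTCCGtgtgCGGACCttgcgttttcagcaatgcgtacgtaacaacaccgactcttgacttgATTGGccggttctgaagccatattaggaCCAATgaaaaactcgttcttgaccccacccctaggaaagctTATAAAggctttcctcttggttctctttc
In these sequences both H1 genes carried AAACACA upstream of CCAAT, both H4 genes carried GGTCCG, and each window shared by an H2A and an H2B gene carried the octamer with several CCAAT elements and a TATA box near either end. A match of letters is a description of the window, not a bound site.

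In PRO-seq, histone genes of the chromosome 6 cluster were transcribed at a higher level in regrown than in parental cells, in all 5 classes. Of the 46 genes with a PRO-seq entry, 44 could be tested, and 41 rose, none fell and 3 were not called, where 30.2% of the 16456 genes tested were called (14.0% higher and 16.2% lower). All 41 had every regrown library above every parental library. The share of all tested genes without overlap was not counted, so this only describes the 41. The median log2 change of the 44 genes was 1.26 (0.44 to 1.71), beside 0.02 over all genes tested. The class medians were 1.57 for H1, 1.23 for H2A, 1.15 for H2B, 1.15 for H3 and 1.31 for H4. HIST1H3D and HIST1H2AL were listed at 0 in every library, and each lies wholly inside another counted gene on the same strand, so their zeros give no level.

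Summed over the cluster, the level was 9335, 7302 and 7643 CPM in the parental libraries and 20167, 17998 and 17854 CPM in the regrown ones. The 2 groups were far apart, with a mean of 0.809% ± 0.109 (SD, n = 3) of all counts against 1.87% ± 0.13 (SD, n = 3), a ratio of 2.31. An exact two-sided permutation test gave p = 0.1, the smallest p that 3 against 3 allows. In bulk libraries, more cells that read these genes and more transcription per cell cannot be told apart. The genes on other chromosomes summed to 4001, 3614 and 3999 CPM in parental and 5117, 4524 and 4325 CPM in regrown cells, a ratio of 1.2 with no overlap. The epithelial and stromal markers in the table, KRT8 and KRT18, summed to 5.53 to 6.70 CPM in parental and 2.58 to 3.80 CPM in regrown libraries, without overlap, and their part in the result was not tested.

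**Figure D1:**
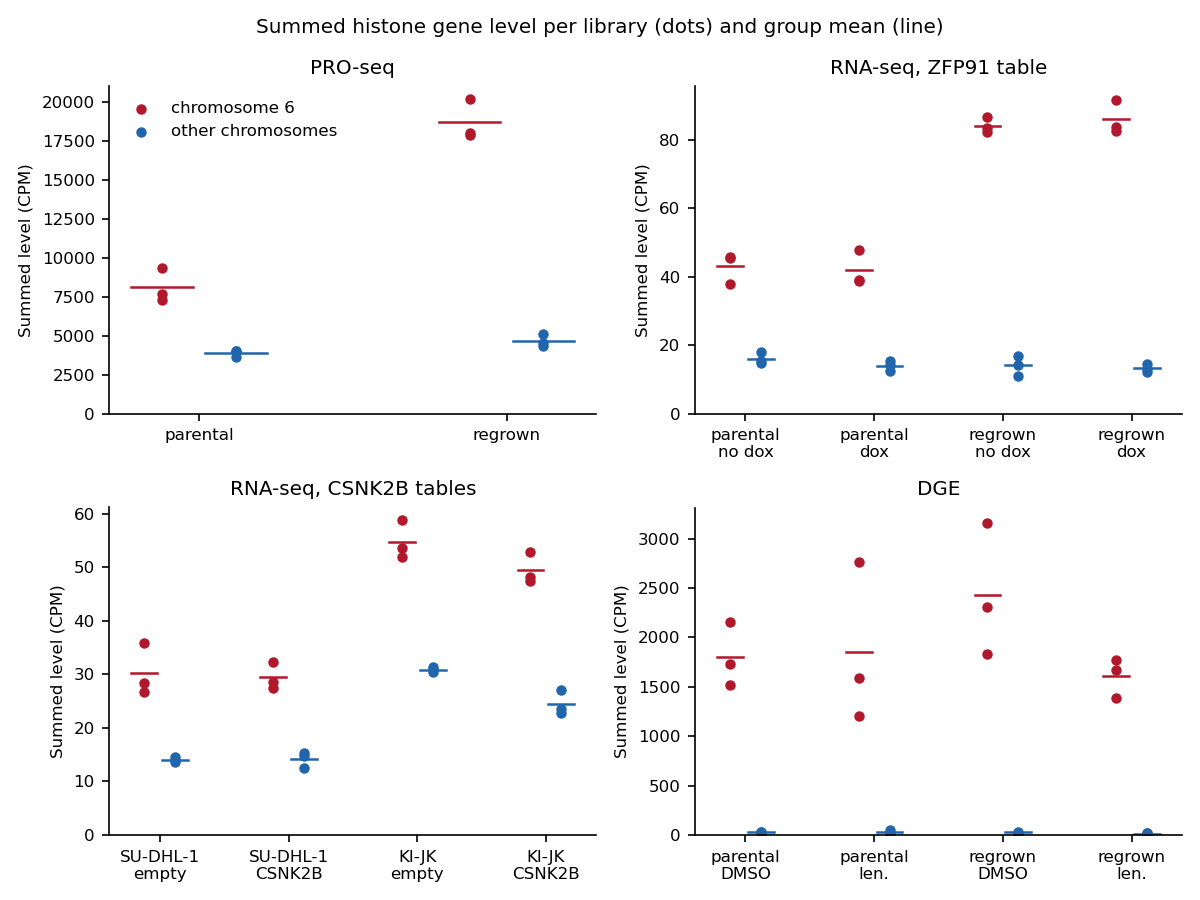
Summed level of the clustered histone genes in each library, in CPM, for the chromosome 6 cluster and for the genes on other chromosomes, with 1 dot per library and a line at each group mean. In PRO-seq the regrown libraries of the chromosome 6 panel lie between 17854 and 20167 CPM, above all parental libraries.

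H1 genes encode the linker histone that binds between nucleosomes, and all 4 tested rose. HIST1H1E (chr6) was read at 282, 205 and 231 CPM in parental and 819, 660 and 792 CPM in regrown libraries. It showed the largest change of the class, 1.65 ± 0.16 on the log2 scale (edgeR adjusted p = 3.98e-05). HIST1H1B was read at 320, 210 and 236 CPM and then 799, 691 and 833 CPM, a log2 change of 1.59 ± 0.17. HIST1H1C, whose mRNA is often polyadenylated, went from 361, 240 and 251 to 912, 744 and 860 CPM, and HIST1H1D from 237, 148 and 123 to 435, 390 and 464 CPM. In each of the 4 genes the lowest regrown library was above the highest parental one, and log2 changes were 1.33 ± 0.21 for HIST1H1D and 1.55 ± 0.18 for HIST1H1C.

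H2A and H2B form the outer dimers of the nucleosome. All 9 H2A genes tested rose, from 0.86 to 1.71 on the log2 scale. HIST1H2AK, named because it had the largest change of any member, was read at 74.2, 50.8 and 60.5 CPM in parental and 209, 190 and 214 CPM in regrown libraries, without overlap (1.71 ± 0.14, edgeR adjusted p = 1.44e-05). HIST1H2AM, the most densely read gene of the class on this chromosome, was read at 362, 256 and 285 CPM and then 844, 687 and 669 CPM, with a log2 change of 1.27 ± 0.16. HIST1H2AC, at the low end of the class, was read at 373, 357 and 365 CPM and then 780, 618 and 604 CPM (0.86 ± 0.14).

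Of 14 H2B genes, 13 rose. HIST1H2BC was read at 322, 215 and 258 CPM in parental and 779, 669 and 689 CPM in regrown libraries, without overlap (1.42 ± 0.16). HIST1H2BK was read at 277, 227 and 221 CPM and then at 687, 561 and 551 CPM (1.30 ± 0.15), and HIST1H2BD changed by 1.30 ± 0.15 as well. HIST1H2BG, which rose by 0.81 ± 0.13, had one of the smaller changes that passed. HIST1H2BM was read at 106, 89.2 and 76.9 CPM and then at 152, 120 and 101 CPM. Its groups overlapped, with 1 parental library above 1 regrown library, and it was not called (0.44 ± 0.17, edgeR adjusted p = 0.0674).

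H3 and H4 form the central tetramer. Of 7 H3 genes tested 6 rose. HIST1H3I was read at 186, 127 and 140 CPM in parental and 415, 400 and 397 CPM in regrown libraries (1.41 ± 0.15). HIST1H3A, whose promoter is printed above, went from 198, 138 and 135 to 420, 357 and 343 CPM (1.24 ± 0.17). HIST1H3H (0.93 ± 0.13) and HIST1H3G (0.64 ± 0.13) changed less and were also called. HIST1H3E was read at only 7.33, 12.3 and 9.92 CPM and then 17.4, 14.8 and 8.07 CPM; its groups overlapped and it was not called (0.44 ± 0.29, edgeR adjusted p = 0.278). H3C2 and H3C3, the RefSeq symbols of HIST1H3B and HIST1H3C, stood in the PRO-seq table under other Ensembl identifiers and are not counted among the members. They went from means of 173 and 196 to 452 and 529 CPM (1.37 ± 0.15 and 1.42 ± 0.16).

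Of 10 H4 genes 9 rose. HIST1H4I was read at 217, 158 and 163 CPM in parental and 498, 462 and 477 CPM in regrown libraries (1.41 ± 0.14). HIST1H4B was read at 299, 202 and 219 CPM and then at 654, 594 and 606 CPM (1.35 ± 0.16). HIST1H4D had the largest H4 change, 1.51 ± 0.15, and HIST1H4L (1.23 ± 0.15) and HIST1H4E (1.07 ± 0.14) lay lower. HIST1H4A was read at 141, 161 and 172 CPM and then 274, 209 and 165 CPM, with 1 regrown library inside the parental range, and was not called (0.44 ± 0.17, edgeR adjusted p = 0.0725). Its counted interval shares 57 bases with that of HIST1H3A on the same strand.

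**Figure D2:**
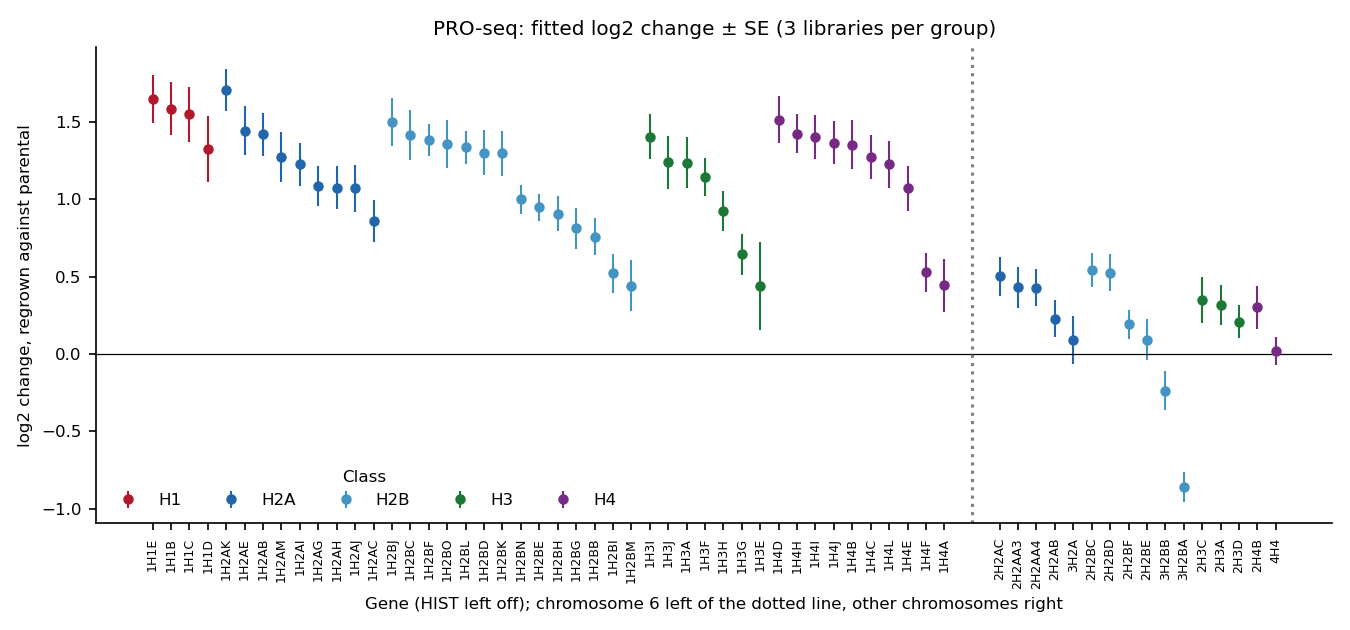
PRO-seq log2 change of every tested histone gene, regrown against parental, with dots at the fitted change, bars of 1 standard error and colours by class; genes are ordered by change within class, and the dotted line parts chromosome 6 (left) from other chromosomes (right). All 44 chromosome 6 genes lie above 0, from 0.44 to 1.71, and the 16 others between -0.86 and 0.55.

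On chromosome 6, 9 pairs of members start on opposite strands within 1 kb. In 8 of them, each an H2A with an H2B gene, the counted intervals start 194 to 251 bases apart and the promoter windows overlap, while HIST1H3F and HIST1H2BH start 979 bases apart. Both members rose in 8 of the 9, where 41 of all 44 genes rose, so the count says nothing particular to pairs. HIST1H2BJ and HIST1H2AG, whose shared window is printed above, changed by 1.5 ± 0.16 and 1.09 ± 0.13 on the log2 scale, and HIST1H2BK and HIST1H2AH by 1.30 ± 0.15 and 1.08 ± 0.14. In the ninth, HIST1H2AJ rose (1.07 ± 0.15) and HIST1H2BM was not called. The difference between partners was not tested. Median log2 changes of the tested genes with a promoter window were 1.27 with the TATA box and 1.23 without, 1.23 and 1.37 for CCAAT, 1.09 and 1.32 for the octamer, 1.57 and 1.23 for AAACACA, and 1.35 and 1.26 for GGTCCG. The groups are small (4 genes with AAACACA, 5 without CCAAT), most of the elements go with certain histone classes, and these differences were not tested.

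Of the histone genes outside chromosome 6, 16 were tested, 5 rose and 1 fell, with a median log2 change of 0.27 (-0.86 to 0.55). The 5 that rose, HIST2H2AA3, HIST2H2AA4, HIST2H2AC, HIST2H2BC and HIST2H2BD, all lie in the HIST2 cluster of chromosome 1 and changed by 0.43 to 0.55. HIST2H2AA3 and HIST2H2AA4 are near-identical copies, so they may not be separate rises. Their means went from 420 and 140 CPM in parental to 572 and 189 CPM in regrown cells. HIST2H2BD, a pseudogene in RefSeq, went from a mean of 36.6 to 53.2 CPM. HIST2H2BC, a pseudogene in RefSeq, was read at 111, 87.4 and 97.0 CPM in parental and 155, 136 and 144 CPM in regrown libraries (0.55 ± 0.11, edgeR adjusted p = 0.00414). HIST2H2AC, with the promoter printed above, was read at 258, 200 and 245 CPM and then 360, 318 and 323 CPM (0.50 ± 0.12). Neither overlapped between groups. HIST2H2AC shares that promoter window with HIST2H2BE, which was read at 536, 511 and 504 CPM and then at 639, 525 and 505 CPM; its groups overlapped and it was not called (0.09 ± 0.13, edgeR adjusted p = 0.637).

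The gene with the highest total among these, HIST2H4B, was read at 798, 678 and 709 CPM in parental and 984, 874 and 855 CPM in regrown libraries. The groups did not overlap, but the change of 0.30 ± 0.14 was not called (edgeR adjusted p = 0.125). HIST2H4B, HIST2H2AA3 with HIST2H2AA4, and HIST2H3A with HIST2H3C belong to near-identical copies, so how reads were divided between them is uncertain. HIST4H4 on chromosome 12 was read at 97.1, 87.4 and 105 CPM and then 99.3, 95.8 and 101 CPM, and its ranges coincided (0.02 ± 0.09, edgeR adjusted p = 0.882). HIST3H2BA, a pseudogene in RefSeq, was read at 99.4, 89.9 and 106 CPM and then 55.7, 58.0 and 50.2 CPM, all regrown libraries below all parental ones; it fell by 0.86 ± 0.10 on the log2 scale (edgeR adjusted p = 0.000116). The other gene counted between the HIST3 members had a log2 change of -1.74. The number of called genes on other chromosomes was 3 in place of 6 without parental replicate 2.

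Per length, the densest members in parental cells were HIST2H2AA3 at 747 ± 91 (SD, n = 3) CPM per kb of counted interval, HIST1H2AM at 701 ± 127, HIST2H4B at 674 ± 58 and HIST1H4F at 632 ± 81. These neighbours did not differ beyond their spread. In regrown cells the order changed, and HIST1H2AM at 1709 ± 224 CPM per kb, HIST1H4L at 1467 ± 37 and HIST1H2BK at 1369 ± 173 (SD, n = 3) came first, all on chromosome 6. At the other end, HIST1H3E stood at 3.15 CPM per kb in parental cells. Its counted interval is 3123 bases long, far longer than a histone coding sequence.

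Genes around the chromosome 6 cluster that are not histone genes also differed between regrown and parental cells. Between the first and the last member of the cluster (chromosome 6, starts from 26020453 to 27893425 in hg38), 25 genes that are neither histone genes nor histone pseudogenes were tested, and 17 rose and 2 fell, with a median log2 change of 0.66. A further 7 were histone loci outside the members, namely H3C2, H3C3 and 5 pseudogenes, of which 6 rose. In the 5 Mb before the cluster 13 of 22 genes rose and 1 fell (median 0.60), and in the 5 Mb after it 96 of 121 rose and 2 fell (median 1.25). Beyond that, 46 of 651 genes of chromosome 6 rose and 239 fell, with a median of -0.26, and the median of 15560 genes on other chromosomes was 0.03. The histone genes' own median was 1.26. In RNA-seq without doxycycline, 68 of 97 genes in the 5 Mb after the cluster rose and 7 fell (median 0.94). Genes within 5 Mb before and after the HIST2 cluster had medians of 0.03 and -0.06. The number of copies of this segment was not measured, and its part in the result was not tested.

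Genes that act on histone supply were compared through lists taken as a whole. Of all 16456 genes tested in PRO-seq, 14.0% were called higher and 16.2% lower. Of 23 genes for histone gene expression and 3' end processing, 3 rose in PRO-seq, 1 fell and 19 were not called, with a median log2 change of 0.06. The risers were NCBP2, the small subunit of the nuclear cap-binding complex (1.33 ± 0.10), ZNF473, the zinc finger protein ZFP100 of the U7 snRNP (0.48 ± 0.11), and CRAMP1 (0.28 ± 0.09). LSM11, a core protein of the U7 snRNP, fell by 0.37 ± 0.12, and NPAT and SLBP were not called. Of 24 histone chaperones and importers 3 rose and none fell (median 0.06). Of 12 replication-independent histone genes 4 rose and 1 fell, among them H2AFV at 0.70 ± 0.09 and H2AFY2, which fell by 2.90 ± 0.30. Of 40 S phase genes 13 rose and 3 fell, with a median of 0.21.

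In RNA-seq the clustered histone genes were read at low levels. The 55 chromosome 6 genes summed to 45.9, 45.4 and 37.7 CPM in parental cells without doxycycline, and to 82.3, 86.6 and 83.5 CPM in regrown ones. The ratio was 1.96 with no overlap (exact two-sided permutation p = 0.1, the smallest possible). The genes on other chromosomes summed to 15.3, 17.9 and 14.7 CPM and then 16.9, 11.1 and 14.2 CPM, which overlapped (ratio 0.88). Of the 55 genes 28 passed the filter on low counts, and 14 of them would not have passed it in both groups alone. Of the 28, 10 rose and none fell, against 43.7% of 13379 genes called (22.6% higher and 21.1% lower). The median log2 change was 1.08 (-0.89 to 2.40). No gene of the 7 tested on other chromosomes was called, 2 had an unadjusted p under 0.05, and their median was -0.11.

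The highest levels among the genes that rose belonged to genes known to make polyadenylated mRNA. HIST1H2BK was read at 7.02, 7.70 and 6.57 CPM in parental and 14.9, 26.9 and 13.6 CPM in regrown libraries (1.48 ± 0.24, edgeR adjusted p = 0.00017). HIST1H1C was read at 2.93, 6.23 and 4.26 CPM and then 9.27, 12.8 and 10.3 CPM (1.37 ± 0.26, edgeR adjusted p = 0.000585). HIST1H2BJ had the largest change, from 0.633, 0.294 and 0.686 to 3.11, 2.68 and 2.32 CPM (2.40 ± 0.47). None of the 3 overlapped between groups.

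HIST1H2AC (0.75 ± 0.25) rose too, with 3.97, 3.41 and 3.23 CPM in parental and 6.42, 5.04 and 5.17 CPM in regrown libraries. HIST1H4I was read at 2.01, 1.88 and 1.67 CPM and then 2.6, 5.4 and 4.24 CPM (1.24 ± 0.35), and HIST1H2AG at 1.67, 0.941 and 0.686 CPM and then 3.11, 2.47 and 3.54 CPM (1.57 ± 0.42). The groups of these 3 genes did not overlap. HIST1H2BF (1.64 ± 0.60), HIST1H2BN (1.30 ± 0.49), HIST1H3C (1.61 ± 0.58) and HIST1H4E (1.75 ± 0.65) were called from levels under 4 CPM in every library, and the groups of HIST1H2BF, HIST1H3C and HIST1H4E overlapped. On the list of 11 genes with polyadenylated transcripts, 9 were tested, 4 rose and 5 were not called. HIST1H2BC had a change of 1.12 ± 0.45 (edgeR adjusted p = 0.0564), and HIST2H2BE and HIST3H2A, both on chromosome 1, had 0.79 ± 0.38 and 0.23 ± 0.32.

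A difference between libraries moved with this comparison. Genes were parted by interval length into 4 equal groups, without the histone genes and the genes between them on chromosome 6. Each gene's log2 level was taken relative to its mean over the libraries of the table. The length score of a library is the median of these deviations in the shortest group minus that in the longest. It was -0.01, 0.06 and 0.27 log2 in parental libraries and -0.24, -0.14 and -0.44 in regrown ones without doxycycline, with no overlap. With the score as a covariate 1250 genes in all were called higher and 1114 lower, in place of 3023 and 2827, and 3 of the 10 chromosome 6 genes stayed called: HIST1H2BJ (2.83), HIST1H2BK (2.05) and HIST1H1C (1.64). The other 7 kept their direction, from 0.02 for HIST1H3C to 1.25 for HIST1H4I on the log2 scale. Without parental replicate 2 or 3, or regrown replicate 1 or 3, the count was 6 in each case, with 2453 to 2745 genes higher and 2142 to 2632 lower in all. The 5 myeloid markers, of which LYZ and MPO were at 0 and CSF1R gave most of the signal, summed to 15.6 to 18.0 CPM in parental and 7.03 to 8.44 CPM in regrown libraries. The 5 epithelial and stromal markers summed to 7.88 to 9.55 and 4.27 to 9.17 CPM, with overlap. The part of these markers in the result was not tested.

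In RNA-seq without doxycycline, 22.6% of all 13379 genes tested were called higher and 21.1% lower. Beside these shares, the lists of genes for histone supply also held calls in both directions. The length score was not used as a covariate for these lists. Without doxycycline, 8 of the 23 genes for histone gene expression and 3' end processing rose and 6 fell, with a median log2 change of 0.01. NCBP2 (1.09 ± 0.10), ZNF473 (1.11 ± 0.12) and NPAT (0.48 ± 0.11) rose, and LSM10, a U7 snRNP protein, fell by 0.69 ± 0.14, ERI1, an exonuclease that trims histone mRNA, by 0.56 ± 0.09 and SLBP by 0.40 ± 0.11. Of 40 S phase genes 8 rose and 9 fell (median -0.07), among them PCNA, the sliding clamp of DNA replication, which fell by 1.32 ± 0.09. Of 24 histone chaperones and importers 8 rose and 7 fell, and of 9 replication-independent histone genes tested 4 rose and 2 fell.

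**Figure D3:**
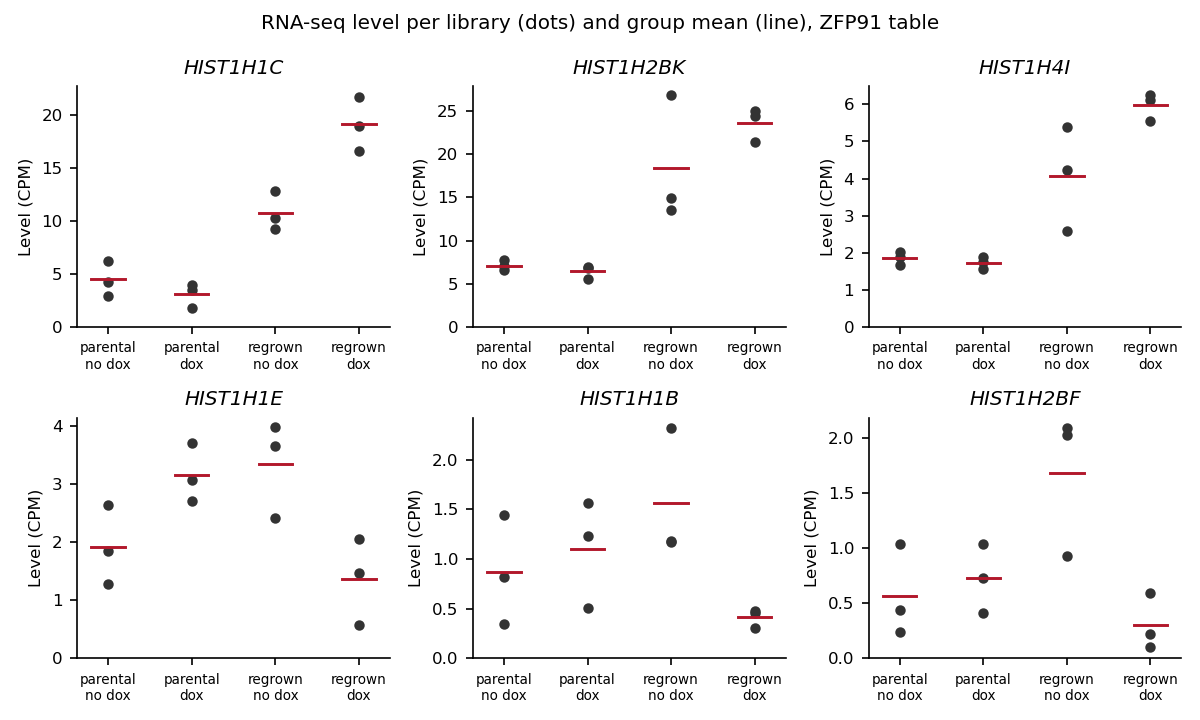
RNA-seq level of named histone genes in each library of the ZFP91 table, in CPM, with 1 dot per library and a line at each group mean for parental and regrown cells with and without doxycycline. HIST1H1C is at 16.6 to 21.8 CPM in regrown cells with doxycycline and at 9.27 to 12.8 CPM without it, above the parental libraries.

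In cells given doxycycline to edit ZFP91, the 3 largest rises from parental to regrown cells were in genes on the list of polyadenylated transcripts, of which 5 of 9 tested rose and none fell. These are other libraries than those without doxycycline. On chromosome 6, 27 genes were tested, 8 rose and 2 fell, against 38.4% of 13444 genes called (18.6% higher and 19.8% lower), with a median log2 change of 0.51. Of the 27 genes, 16 would not have passed the filter in both groups alone. No gene of 7 on other chromosomes was called, and 2 had an unadjusted p under 0.05. HIST1H1C went from 1.82, 3.99 and 3.44 to 21.8, 19.0 and 16.6 CPM (2.6 ± 0.23, edgeR adjusted p = 3.84e-05). HIST1H2BK was read at 6.82, 5.57 and 6.92 CPM and then 24.4, 25 and 21.4 CPM (1.87 ± 0.13). All regrown libraries of both genes lay above all parental ones.

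HIST1H4I rose from 1.56, 1.89 and 1.74 to 5.55, 6.26 and 6.12 CPM (1.77 ± 0.19), HIST1H2BJ by 2.26 ± 0.38, HIST1H2AI by 1.57 ± 0.44, HIST1H2AC by 1.22 ± 0.24, HIST1H2AG by 1.17 ± 0.34 and HIST1H2BD by 0.87 ± 0.30 on the log2 scale. The genes that fell were HIST1H1E, at 3.70, 3.07 and 2.70 CPM in parental and 1.47, 0.579 and 2.06 CPM in regrown libraries, and HIST1H2BH, at 3.70, 2.30 and 2.15 and then 1.39, 1.21 and 1.6 CPM. Neither gene's groups overlapped, and the changes were -1.18 ± 0.39 (edgeR adjusted p = 0.0404) and -0.94 ± 0.31 (edgeR adjusted p = 0.0366). The chromosome 6 sum went from a mean of 41.8 to 86.0 CPM (ratio 2.06), but without the polyadenylated list it was 25.5 and 28.7 CPM (ratio 1.13) with overlapping groups. In the libraries without doxycycline this did not hold. There the sum without that list was higher in every regrown than in every parental library. Without regrown replicate 1 the count of called chromosome 6 genes was 6 in place of 10, and 1731 genes in all were higher and 2035 lower in place of 2500 and 2665. The myeloid markers summed to 12.1 to 14.4 CPM in parental and 7.05 to 7.72 CPM in regrown libraries here, and the epithelial and stromal markers, most of it KRT18, to 6.39 to 7.93 and 3.47 to 5.58 CPM, with EPCAM at 0.26 CPM or less. Neither sum overlapped between groups, and their part was not tested.

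In parental cells no histone gene was called between libraries with and without doxycycline. Doxycycline and the editing of ZFP91 go together here and cannot be told apart. In that comparison 0.427% of 13354 genes were called by edgeR (0.0599% higher and 0.367% lower), and of the histone genes 0 of 25 on chromosome 6 and 0 of 8 elsewhere were called, with an unadjusted p under 0.05 for 1 and 0 of them. The lowest p-values belonged to HIST1H1E, at 1.84, 2.65 and 1.27 CPM without and 3.70, 3.07 and 2.70 CPM with doxycycline (0.75 ± 0.31, edgeR adjusted p = 0.567), and to HIST1H2BG (-0.62 ± 0.34).

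In regrown cells 31.9% of 13107 genes were called between libraries with and without doxycycline (16.3% higher and 15.7% lower). Of 28 chromosome 6 histone genes 1 rose and 4 fell, and 1 of 7 elsewhere fell; 12 and 1 of those tested would not have passed the filter in both groups alone. HIST1H1C rose from 9.27, 12.8 and 10.3 to 21.8, 19.0 and 16.6 CPM (0.78 ± 0.16, edgeR adjusted p = 0.00275). HIST1H2BF fell from 2.09, 0.926 and 2.03 to 0.217, 0.105 and 0.594 CPM (-2.45 ± 0.62, edgeR adjusted p = 0.00961), and HIST1H1B from 1.17, 1.18 and 2.32 to 0.304, 0.474 and 0.457 CPM (-1.95 ± 0.51). None of these groups overlapped.

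HIST1H2AE fell by 1.4 ± 0.47, HIST1H1E by 1.31 ± 0.42, and HIST2H2BE, which went from 4.99, 2.06 and 2.96 to 1.39, 1.42 and 1.83 CPM, by 1.1 ± 0.37 on the log2 scale. The libraries with doxycycline had length scores of 0.16, 0.15 and 0.06, above all regrown libraries without it. With the score as a covariate edgeR called 0 of all 13107 genes, so no histone gene either. The 6 histone genes kept their direction, at 0.35 for HIST1H1C, -0.33 for HIST1H1E, -0.50 for HIST1H1B, -0.73 for HIST2H2BE, -0.79 for HIST1H2BF and -2.03 for HIST1H2AE on the log2 scale. The counts also turned on single libraries. On chromosome 6, 8 genes were called without regrown replicate 2 of the group without doxycycline, and 3 and 2 without replicates 1 and 2 of the group with it; HIST2H2BE was not called without replicate 1 of the former group or without any 1 of the latter.

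A test of whether the difference with doxycycline itself differed between regrown and parental cells called 9.81% of 14267 genes (4.47% higher and 5.33% lower). Of 33 chromosome 6 histone genes 1 was higher and 2 lower, and none of 8 elsewhere was called (edgeR; none had an unadjusted p under 0.05). Of these 33 and 8, 22 and 2 would not have passed the filter in all 4 groups alone. HIST1H1C had a difference of 1.25 ± 0.36 (edgeR adjusted p = 0.0441) and HIST1H1E of -2.07 ± 0.56 (edgeR adjusted p = 0.0358). HIST1H4A had one of -6.32 ± 1.19 (edgeR adjusted p = 0.0238), which rests on 0, 1 and 1 counts in regrown libraries with doxycycline and is no bound on the true change. The count turned on single libraries: it was 0 without parental replicate 2 or 3 or regrown replicate 1 or 3 of the groups without doxycycline, or without parental replicate 3 or regrown replicate 1 or 2 of those with it. In each of these 7 cases edgeR called 0 of all genes tested, not only 0 histone genes. It was 1 without parental replicate 1 and 5 without parental replicate 2 with doxycycline, 2 without regrown replicate 3 with it, and 7 without regrown replicate 2 without it.

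CSNK2B overexpression left the histone genes of SU-DHL-1 without a call. There 6.74% of 13727 genes were called by edgeR (3.39% higher and 3.34% lower), and 0 of 15 and 0 of 7 histone genes on chromosome 6 and elsewhere, none with an unadjusted p under 0.05. The nearest were HIST1H2BD, at 1.08, 0.692 and 1.1 CPM with the empty vector and 1.51, 1.23 and 1.62 CPM with CSNK2B (0.55 ± 0.30, edgeR adjusted p = 0.341), and HIST1H1E (0.75 ± 0.41). The groups of HIST1H2BD did not overlap.

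In KI-JK 35.7% of 14104 genes were called (18.4% higher and 17.3% lower). Of the histone genes 2 of 25 on chromosome 6 and 2 of 8 elsewhere fell and none rose; 8 and 1 of those tested would not have passed the filter in both groups alone. HIST3H2A was read at 10.5, 9.55 and 10.5 CPM with the empty vector and 7.41, 7.05 and 7.50 CPM with CSNK2B (-0.46 ± 0.11, edgeR adjusted p = 0.00271). HIST2H2BC was read at 3.73, 3.77 and 3.89 CPM and then 2.51, 2.67 and 2.35 CPM (-0.58 ± 0.19), and HIST1H1C at 5.51, 6.80 and 5.32 CPM and then 4.16, 3.76 and 4.81 CPM (-0.45 ± 0.16, edgeR adjusted p = 0.0319). All libraries with CSNK2B were below all with the empty vector for these 3 genes.

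HIST1H3E was also called (-1.13 ± 0.43) from levels under 1.5 CPM. The sum outside chromosome 6 went from a mean of 30.9 to 24.5 CPM (ratio 0.79) without overlap (exact two-sided permutation p = 0.1, the smallest possible). The chromosome 6 count of 2 became 0 without empty-vector replicate 2 or CSNK2B replicate 1 or 2, and 1 without empty-vector replicate 3 or CSNK2B replicate 3, and HIST2H2BC was not called without empty-vector replicate 3 or CSNK2B replicate 3. PAX5, a B cell marker, was at 10.9 to 11.96 CPM with the empty vector and 8.64 to 9.10 CPM with CSNK2B. The myeloid markers summed to 135 to 138 and 128 to 132 CPM, also without overlap, and the epithelial and stromal markers to 5.35 to 29.2 and 1.92 to 9.89 CPM, with overlap. The part of these markers was not tested. The difference in response between the lines, for which 19.2% of 15564 genes were called (10.7% higher and 8.44% lower), was not called by edgeR for any of 26 and 8 histone genes, of which 0 and 1 had an unadjusted p under 0.05. The nearest were HIST2H2BC (-0.79 ± 0.34, edgeR adjusted p = 0.109) and HIST1H2BD (-0.77 ± 0.40, edgeR adjusted p = 0.188).

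The lines themselves differed more. With the empty vector, KI-JK stood above SU-DHL-1 for 15 of 21 chromosome 6 genes and 6 of 8 elsewhere and below it for none, where 78.8% of 14786 genes were called (40.1% higher and 38.7% lower). The median log2 differences were 1.05 and 1.4. Of the genes tested, 14 of 21 and 3 of 8 would not have passed the filter in both lines alone. HIST1H2BK was read at 4.31, 4.36 and 3.41 CPM in SU-DHL-1 and 11.1, 11.9 and 14.0 CPM in KI-JK (1.65 ± 0.14, edgeR adjusted p = 2.87e-12). HIST2H2AC was read at 2.78, 2.08 and 2.81 CPM and then 8.13, 8.18 and 6.92 CPM (1.62 ± 0.17), and HIST3H2A at 5.18, 4.85 and 6.04 CPM and then 10.5, 9.55 and 10.5 CPM (0.97 ± 0.13). Each gene was higher in all 3 KI-JK libraries.

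HIST1H2BD (1.56 ± 0.28) and HIST2H2BC (1.51 ± 0.24) were called as well, and so was HIST1H3E (2.86 ± 0.53), which had 4, 1 and 3 counts in SU-DHL-1 and 14, 37 and 27 in KI-JK and passed the filter only through KI-JK. The sums were 30.3 and 54.8 CPM on chromosome 6 (ratio 1.81) and 14.1 and 30.9 CPM elsewhere (ratio 2.2). Here the other genes between the chromosome 6 members had a median of -0.00, and those within 5 Mb before and after the HIST2 cluster had 0.31 and 0.62. The B cell marker PAX5 was at 0 in every SU-DHL-1 library and at 10.9 to 11.96 CPM in KI-JK, and MS4A1 and CD79B were at or near 0 in both. The myeloid markers summed to 20.2 to 21.3 and 135 to 138 CPM, nearly all from CSF1R, with MPO at 0. The part of these markers in the result was not tested. The line, the serum in the medium (10% or 20%) and the sequenced table differ together and cannot be told apart.

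**Figure D4:**
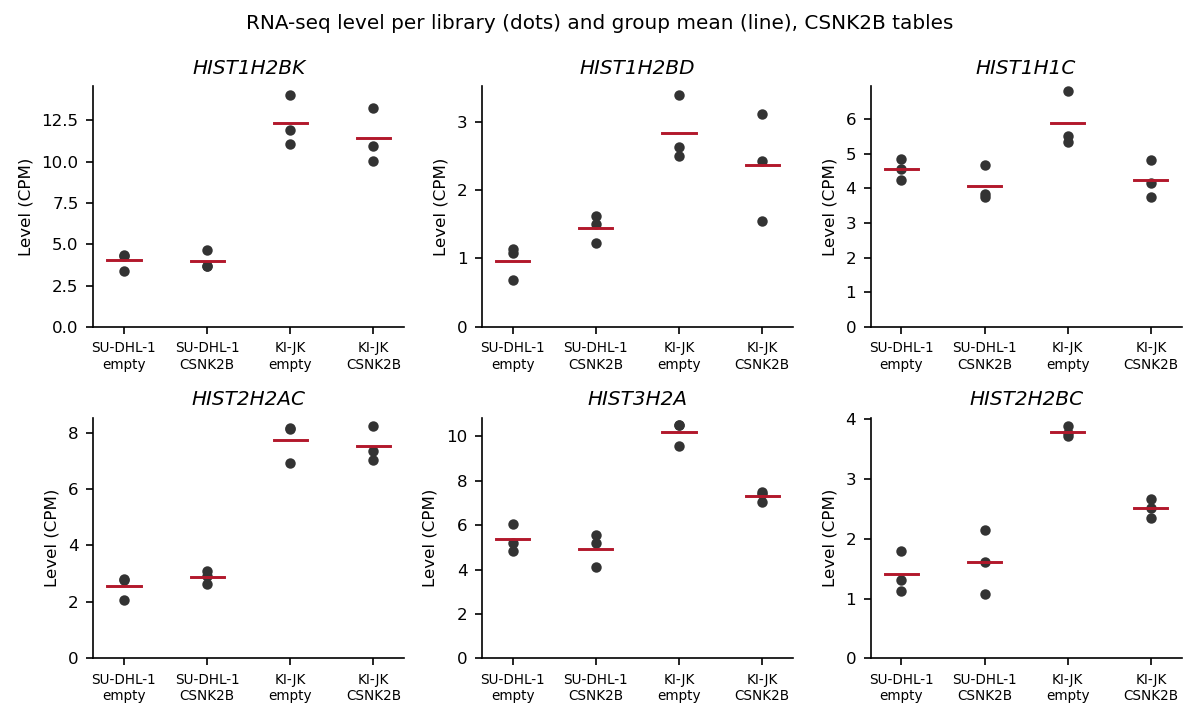
RNA-seq level of 6 histone genes in each library of the CSNK2B tables, in CPM, with 1 dot per library and a line at each group mean for SU-DHL-1 and KI-JK with the empty or the CSNK2B vector. HIST1H2BK lies at 3.41 to 4.36 CPM in SU-DHL-1 and 11.1 to 14.0 CPM in KI-JK with the empty vector, and HIST3H2A is lower in KI-JK with CSNK2B than without.

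In DGE 1 gene, HIST1H4C, named after its values were seen, made up most of the histone signal. It was read at 1649, 1400 and 1242 CPM in parental DMSO libraries and at 1802, 2546 and 1322 CPM in regrown ones, which overlapped (0.39 ± 0.18, edgeR adjusted p = 0.234). The same gene was at 0.345, 0.294 and 0.098 CPM in parental RNA-seq libraries without doxycycline, and at 221, 150 and 186 CPM in parental PRO-seq. The CPM scales of the 3 assays have different totals, so the levels stand side by side only. Between 4 and 6 chromosome 6 histone genes could be tested in the DGE comparisons and none elsewhere.

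Regrown and parental cells in DMSO, for which edgeR called 6.21% of 5941 genes (2.91% higher and 3.30% lower), gave 0 of 5 histone genes, of which 3 had an unadjusted p under 0.05. HIST1H1C was read at 60.3, 43.2 and 35.8 CPM in parental and 75.2, 138 and 64.5 CPM in regrown libraries, without overlap (0.99 ± 0.33, edgeR adjusted p = 0.075). HIST1H1E was read at 71.8, 57.6 and 35.8 CPM and then 75.2, 148 and 64.5 CPM (0.81 ± 0.33, edgeR adjusted p = 0.17), with overlap. Leaving out any 1 library left 1 to 3 of these genes called, 3 of them without regrown replicate 3 and 1 without any other. Under lenalidomide 2.78% of 4648 genes were called by edgeR (1.2% higher and 1.57% lower) and 0 of 4 histone genes, 2 with an unadjusted p under 0.05. HIST1H1D was read at 50.6, 109 and 24.1 CPM and then 49.1, 7.55 and 20.0 CPM (-1.66 ± 0.59, edgeR adjusted p = 0.149), and the groups overlapped. These levels rest on 17, 43 and 1 tags and then 6, 1 and 7. Library totals under lenalidomide were 335651, 395827 and 41571 in parental and 122167, 132406 and 349614 in regrown cells.

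Lenalidomide against DMSO in parental cells called 0.845% of 5796 genes by edgeR (0.673% higher and 0.173% lower) and 0 of 4 histone genes, none with an unadjusted p under 0.05. HIST1H1C had a change of 0.69 ± 0.36 and HIST1H4C, at 1183, 2296 and 1082 CPM under the drug, of 0.20 ± 0.20. In regrown cells 0.230% of 5661 genes were called by edgeR, all of them higher, and 0 of 6 histone genes, of which 4 had an unadjusted p under 0.05. HIST1H1E was read at 75.2, 148 and 64.5 CPM in DMSO and 49.1, 15.1 and 34.3 CPM in lenalidomide, without overlap (-1.53 ± 0.46, edgeR adjusted p = 0.37). HIST1H1B was read at 39.0, 45.9 and 89.5 CPM and then 24.6, 7.55 and 25.7 CPM (-1.41 ± 0.55, edgeR adjusted p = 0.814). The lenalidomide levels rest on only 6, 2 and 12 tags for HIST1H1E and 3, 1 and 9 for HIST1H1B.

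The chromosome 6 sum in regrown cells was 2309, 3158 and 1837 CPM in DMSO and 1383, 1775 and 1673 CPM in lenalidomide, lower in all 3 treated libraries (ratio 0.66, exact two-sided permutation p = 0.1, the smallest possible). Without HIST1H4C the means were 545 ± 59 and 367 ± 175 CPM (SD, n = 3), with overlap (exact two-sided permutation p = 0.3). The test of whether the drug response differed between regrown and parental cells called no gene at all (0.00% of 6838 by edgeR). Of 6 histone genes 4 had an unadjusted p under 0.05. For none of the DGE comparisons was the share of all genes at that threshold counted, so no histone response is read from these counts.

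RNA-seq and PRO-seq were set against each other in 1 model of the 12 libraries without doxycycline, which asks whether the change from parental to regrown cells differs between the assays. It called 17.8% of 16313 genes (8.19% higher and 9.63% lower). Of 45 chromosome 6 histone genes 1 was higher in RNA-seq than in PRO-seq and 2 lower, and of 16 elsewhere 3 were lower, with median differences of -0.24 and -0.47 on the log2 scale. HIST1H2BH had a difference of -1.83 ± 0.27 (edgeR adjusted p = 0.000636) and HIST1H2AH of -1.88 ± 0.52 (edgeR adjusted p = 0.0223), while HIST1H4A had 2.19 ± 0.68 (edgeR adjusted p = 0.0358). Outside chromosome 6 the genes were HIST2H2AC (-1.53 ± 0.25), HIST2H2BD (-2.31 ± 0.58) and HIST2H2BF (-1.26 ± 0.32). The chromosome 6 count was 1 without regrown RNA-seq replicate 1 and 5 without replicate 2. Of the 45 and 16 genes, 32 and 10 would not have passed the filter in all 4 groups alone, because of their low RNA-seq counts. The RNA-seq cells carried Cas9 and the ZFP91 guide, which the labels do not give for the PRO-seq cells. A difference between assays and one between these cells cannot be told apart. The length score, which differed between the RNA-seq groups, was not used as a covariate here.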

How the data were processed

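Gene counts of 42 libraries in 14 groups of 3, out of 80 samples in the series, were analysed, and 38 ChIP-seq samples were not analysed here. The counts are whole reads or tags per gene as deposited by the authors, with no normalization. Per the submitters' processing notes, PRO-seq used cutadapt 1.14, Bowtie 1.2.2 and featureCounts 1.6.2 on hg38, DGE used Bowtie2 2.2.3 on hg19, and RNA-seq used STAR 2.6.1d on hg38 with DESeq2 1.20.0 and edgeR 3.24.3. The RNA-seq counting tool, its use of strand, poly(A) selection and the handling of molecular identifiers in DGE are not given in the sources used here, so reads of overlapping genes and near-identical copies may be divided in ways that cannot be seen.

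Members and lists were chosen with earlier results of these data known. Each comparison was fitted across all genes of its table with edgeR 4.0.16 in R 4.3.3 (filterByExpr, TMM, glmQLFit, glmQLFTest), with no other groups in the fit, and p-values were adjusted by the Benjamini-Hochberg method across every gene that passed the filter. The scripts were tested on simulated data. CPM were counts over the library total, and sums were compared by exact permutation over libraries. Genes were named by rule: in PRO-seq the 4 members with the highest level in each chromosome 6 class, all on other chromosomes and all not called, and elsewhere those called, or the 2 with the lowest p where none was; a gene named outside this rule was chosen after its values were seen. Alternatives were DESeq2 (1.42.0, also its size factors alone), library size only, no filter, at least 1 CPM in 3 libraries, all groups of a table in 1 fit, the replicate number as a block, the length score as a covariate, and leaving out each library. Labels tie the regrown pools across treatments, so the numbers pair those comparisons. Elsewhere they are only numbers, and no comparison had all 3 same-number correlations of deviations over 0.1. The low depth of DGE left few members with enough tags to test. 1 gene of the marker lists is not reported here.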

Additional observations from a re-analysis of the deposited data

Results flagged for a closer look

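For 3 members the difference between libraries with and without doxycycline in the ZFP91 cells was called as different between regrown and parental cells. The test was of the difference itself (edgeR, interaction of cell state and doxycycline). These calls turned on single libraries, as given above, and the length score was not used as a covariate in this test. HIST1H1C, a linker histone gene, had a difference of 1.2548 on the log2 scale, and the genes for HIST1H1E, another linker histone, and HIST1H4A had -2.0687 and -6.322. The value of HIST1H4A rests on 0 to 19 counts per library. No explanation was tested.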

How the results depend on the processing

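Counts of called members below are for chromosome 6, then other chromosomes where given. Regrown against parental RNA-seq without doxycycline called 3 chromosome 6 members with the length score, with or without the replicate block, in place of 10, and 1 in place of 0 elsewhere by library size only, the filter of 1 CPM or all groups in 1 fit. With doxycycline, other chromosomes gave 3 without a filter and 1 by DESeq2 or with the length score, with or without the replicate block. Doxycycline in regrown cells gave 0 and 0 with the length score, with or without the replicate block. The interaction with cell state gave 5 without a filter and 5 with the replicate block. CSNK2B in KI-JK gave 1 without a filter, 1 with the filter of 1 CPM, 1 with the replicate block and 0 by DESeq2, and KI-JK against SU-DHL-1 gave 8 with the filter of 1 CPM. In DGE, regrown against parental cells in DMSO gave 1 without a filter, with the filter of 1 CPM, with all groups in 1 fit and with the replicate block, and lenalidomide in parental cells gave 1 without a filter. RNA-seq against PRO-seq gave 7 by DESeq2. Without HIST1H4C, a choice made after seeing the data, the DGE ratio of chromosome 6 sums turned to 1.10 for regrown against parental cells under lenalidomide and to 0.894 for lenalidomide in parental cells. The cause of these shifts was not tested.

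Leaving out single libraries gave 3 to 7 called members on other chromosomes in PRO-seq; 6 to 13 and 0 to 1 in RNA-seq without doxycycline; 6 to 11 and 0 to 2 with it. It gave 2 to 8 and 0 to 1 for doxycycline in regrown cells, 0 to 7 and 0 to 1 for the interaction, 0 to 3 and 1 to 2 for CSNK2B in KI-JK, 0 to 1 and 0 to 1 for its difference between lines, 1 to 3 in DGE regrown against parental cells in DMSO and 1 to 5 for RNA-seq against PRO-seq. Ratios of sums ranged over 0.905 to 1.01 for doxycycline in parental cells, 0.989 to 1.04 and 0.847 to 1.04 in regrown cells, 0.917 to 1.07 and 0.968 to 1.07 for CSNK2B in SU-DHL-1, 0.893 to 1.10 on other chromosomes for DGE in DMSO, 0.740 to 1.15 under lenalidomide, and 0.775 to 1.21 and 0.671 to 1.31 for lenalidomide in parental cells.

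By library size only, the medians over all genes shifted to -0.10 in RNA-seq without doxycycline, where 2415 genes were higher and 3546 lower in place of 3023 and 2827, and 977 and 463 genes in place of 638 and 761 were called in the interaction. The same scaling gave 1287 and 1611 in place of 1671 and 1313 for the difference in CSNK2B response, and 1019 and 2111 in place of 1336 and 1571 for RNA-seq against PRO-seq. The chromosome 6 PRO-seq count was 39 to 44 over the left-out libraries and within 1.5 times of 41 under every other alternative run. The replicate block alone moved a count of called members by over 1.5 times, or from 0, only on chromosome 6. This was in the interaction, for CSNK2B in KI-JK and in DGE regrown against parental cells in DMSO. Low RNA-seq and DGE counts limit what can be read for single members.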
